A study of Homo sapiens with 12 samples.

Results

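Claudins, the other transmembrane proteins of the tight junction, their cytoplasmic scaffolds and the Crumbs and Par polarity proteins were followed across 12 RNA libraries of human embryonic stem cell colonies. The genes were taken by symbol: every gene named CLDN with a number, TJP1, TJP3, OCLN, EPCAM, CRB1 to CRB3, CGN, CGNL1, MARVELD2, MARVELD3, F11R, JAM2, JAM3, PARD3, PARD6A, PARD6B and PATJ. The rule found 42 of the 35940 symbols measured, 24 claudins and 18 others. Of these, 33 passed the filter on low counts and were tested, 15 of them claudins.

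The cells were the ESI017 line, human pluripotent stem cells that carry an mCitrine reporter on SOX2, and every group shares that reporter. Colonies grew on micropatterned glass for 3 days in N2B27, a serum-free basal medium. Control colonies received N2B27 alone, and treated colonies received FGF8 at 200 ng/ml together with WNT3A at 100, 300 or 1000 ng/ml, so the effects of FGF8 and of WNT3A cannot be told apart. Treated colonies were dissociated and their cells sorted by reporter fluorescence into a SOX2-positive and a SOX2-negative gate. The labels give no gate for the controls. There were 2 control libraries, 2 for each gate at 100 and at 1000 ng/ml, and 1 for each gate at 300 ng/ml. The series title asks how the response to WNT moves from posterior patterning to germ layer differentiation in confined colonies. All libraries come from 1 cell line, so p-values measure the spread between repeats of that line.

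Tight junctions seal the space between epithelial cells close to their apical surface. Claudins form the strands of the seal and set which ions and molecules pass, occludin and the related MARVEL proteins join these strands, and zonula occludens proteins such as TJP1 and TJP3 tie them to actin. The Crumbs and Par complexes mark the apical side and position the junction. Pluripotent stem cells grow as a polarised epithelium with such junctions, and CLDN6 and EPCAM are well known surface genes of these cells.

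The promoters of 4 genes on which the results turn are shown first: CLDN18, which had the largest fold change between the gates among the genes called, at both of its annotated starts, the paralogues CGN and CGNL1, which moved in opposite directions, and CLDN6, the most abundant claudin. Each sequence runs from 250 bases before to 50 bases after a RefSeq gene start on GRCh38.p14 and is written 5′ to 3′ on the strand of the gene. Capitals mark matches, on either strand, to 6 short motifs that were searched: AGATAA (bound by GATA factors), TGTTTAC (forkhead factors), CAGGTG (the E-box of SNAI and ZEB repressors), AACNNGTT (grainyhead-like factors), CTTTGA (TCF and LEF factors) and ACAATG (SOX factors). None of the 6 motifs contains another. CLDN18 start 1 lies at chr3:137998566-137998865 and start 2 at chr3:138009915-138010214, both on the plus strand. CGN is at chr1:151511137-151511436 and CGNL1 at chr15:57376255-57376554, both on the plus strand, and CLDN6 is at chr16:3018134-3018433 on the minus strand.
CLDN18 start 1: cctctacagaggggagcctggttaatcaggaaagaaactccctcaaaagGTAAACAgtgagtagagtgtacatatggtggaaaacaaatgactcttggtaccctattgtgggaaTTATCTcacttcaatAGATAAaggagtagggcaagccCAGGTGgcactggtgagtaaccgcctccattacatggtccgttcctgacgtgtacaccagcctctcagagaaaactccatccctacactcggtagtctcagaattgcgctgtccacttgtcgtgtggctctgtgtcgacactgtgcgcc
CLDN18 start 2: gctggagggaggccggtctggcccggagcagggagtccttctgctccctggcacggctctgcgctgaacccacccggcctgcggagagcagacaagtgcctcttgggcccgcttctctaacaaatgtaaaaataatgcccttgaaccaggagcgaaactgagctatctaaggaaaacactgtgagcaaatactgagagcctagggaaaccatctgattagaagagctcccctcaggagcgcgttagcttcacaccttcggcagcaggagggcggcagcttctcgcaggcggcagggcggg
CGN: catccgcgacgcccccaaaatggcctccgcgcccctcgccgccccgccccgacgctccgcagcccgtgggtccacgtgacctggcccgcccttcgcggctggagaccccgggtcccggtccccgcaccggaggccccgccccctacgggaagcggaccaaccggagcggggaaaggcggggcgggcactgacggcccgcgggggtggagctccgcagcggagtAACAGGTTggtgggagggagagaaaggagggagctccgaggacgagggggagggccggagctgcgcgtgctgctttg
CGNL1: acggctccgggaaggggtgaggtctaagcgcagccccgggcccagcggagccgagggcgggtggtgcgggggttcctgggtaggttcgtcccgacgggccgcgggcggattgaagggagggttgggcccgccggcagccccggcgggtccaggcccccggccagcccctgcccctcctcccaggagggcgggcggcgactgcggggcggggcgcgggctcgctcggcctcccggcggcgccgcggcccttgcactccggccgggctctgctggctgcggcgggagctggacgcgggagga
CLDN6: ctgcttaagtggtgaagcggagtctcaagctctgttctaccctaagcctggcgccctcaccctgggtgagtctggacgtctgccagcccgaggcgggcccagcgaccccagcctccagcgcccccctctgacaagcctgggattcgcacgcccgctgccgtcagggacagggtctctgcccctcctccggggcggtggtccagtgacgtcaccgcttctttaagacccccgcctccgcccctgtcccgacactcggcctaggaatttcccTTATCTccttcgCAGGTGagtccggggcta

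Upstream start 1 of CLDN18 holds the GATA letters on both strands, the forkhead letters and the SNAI and ZEB E-box, while start 2 holds none of the 6 motifs. Over all 35116 RefSeq promoters of this length, 10.3% held the GATA letters, 3.42% the forkhead letters, 20.6% the E-box, 3.52% the grainyhead-like letters, 12.9% the TCF and LEF letters and 10.8% the SOX letters. CGN holds the grainyhead-like letters and none of the other motifs, and CGNL1 holds none of them. CLDN6 holds the GATA letters and the E-box within the 50 bases after its start. Among the 7 genes called between the gates that have a promoter in the table, the E-box stood in CLDN18, CRB3 and PARD6A and the TCF and LEF letters in CLDN11 and CLDN10. Among the 15 tested genes with a promoter that were not called, the E-box stood in 7 (CLDN3, CLDN6, CLDN7, OCLN, PATJ, TJP1 and TJP3). The TCF and LEF letters stood in 3 of them (CLDN4, CLDN20 and TJP1), the forkhead letters in PATJ, the GATA letters in CLDN6 and the SOX letters in CLDN20. These counts take a gene as holding a motif if any of its starts does, while the shares over all promoters are by single promoter, so the 2 are not directly comparable. A match is a description of the letters and not a binding site.

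Library totals ran from 16474856 to 28079048 estimated counts, and values below are CPM, counts relative to a common library total, after scaling of the totals by the TMM method. All 8 pluripotency markers fixed for the check were detected in every group. Their summed levels were 6381 to 6459 CPM in control, 6051 to 6911 CPM in SOX2-positive and 2331 to 3468 CPM in SOX2-negative cells. The sums include SOX2, the sorted gene, and hide opposite changes of single markers. From control to SOX2-positive cells, mean LIN28A went from 3492 to 1789.8 CPM and mean TDGF1 from 17.9 to 386 CPM (SOX2-positive means at 100 and 1000 ng/ml). Library WNT3A 100 SOX2-negative replicate 2 stood apart from its replicate: 16.6% of all tested genes differed more than 2-fold between them, against 2.53% to 6.89% in the other pairs of replicates. Values by library are given in the order 100 ng/ml replicates 1 and 2, 300 ng/ml, and 1000 ng/ml replicates 1 and 2 within each gate.

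Between the gates, junction genes changed in both directions. CLDN18, CLDN11, CGNL1, CRB3, CLDN19 and EPCAM rose in SOX2-negative relative to SOX2-positive cells, and PARD6A, JAM2, CLDN10, MARVELD3, CGN and PARD3 fell. These 12 genes are 36.4% of the 33 tested, 6 higher and 6 lower, where 24.0% of all 17047 genes were called (12.9% higher and 11.1% lower) by edgeR's quasi-likelihood test at an adjusted p under 0.05. Called and not called refer to this test, unless another tool or setting is named. The median log2 fold change was -0.07 over the 33 genes and 0.01 over all genes, and the median size of the change regardless of sign was 0.64 against 0.42. Within each dose and repeat, where both gates came from the same colonies, all 12 genes kept their direction in 5 of 5 pairs. So did CLDN9, CRB2 and PATJ, which were not called. Most of these pairs are the libraries that gave the calls, so a constant sign in called genes is largely built in. It is no separate evidence for the calls, and the share of all genes with a constant sign was not computed. Leaving out library WNT3A 100 SOX2-negative replicate 2 gave 13 called genes, and leaving out WNT3A 100 SOX2-positive replicate 2 gave 11, without PARD3 (adjusted p 0.052 in edgeR).

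**Figure D1:**
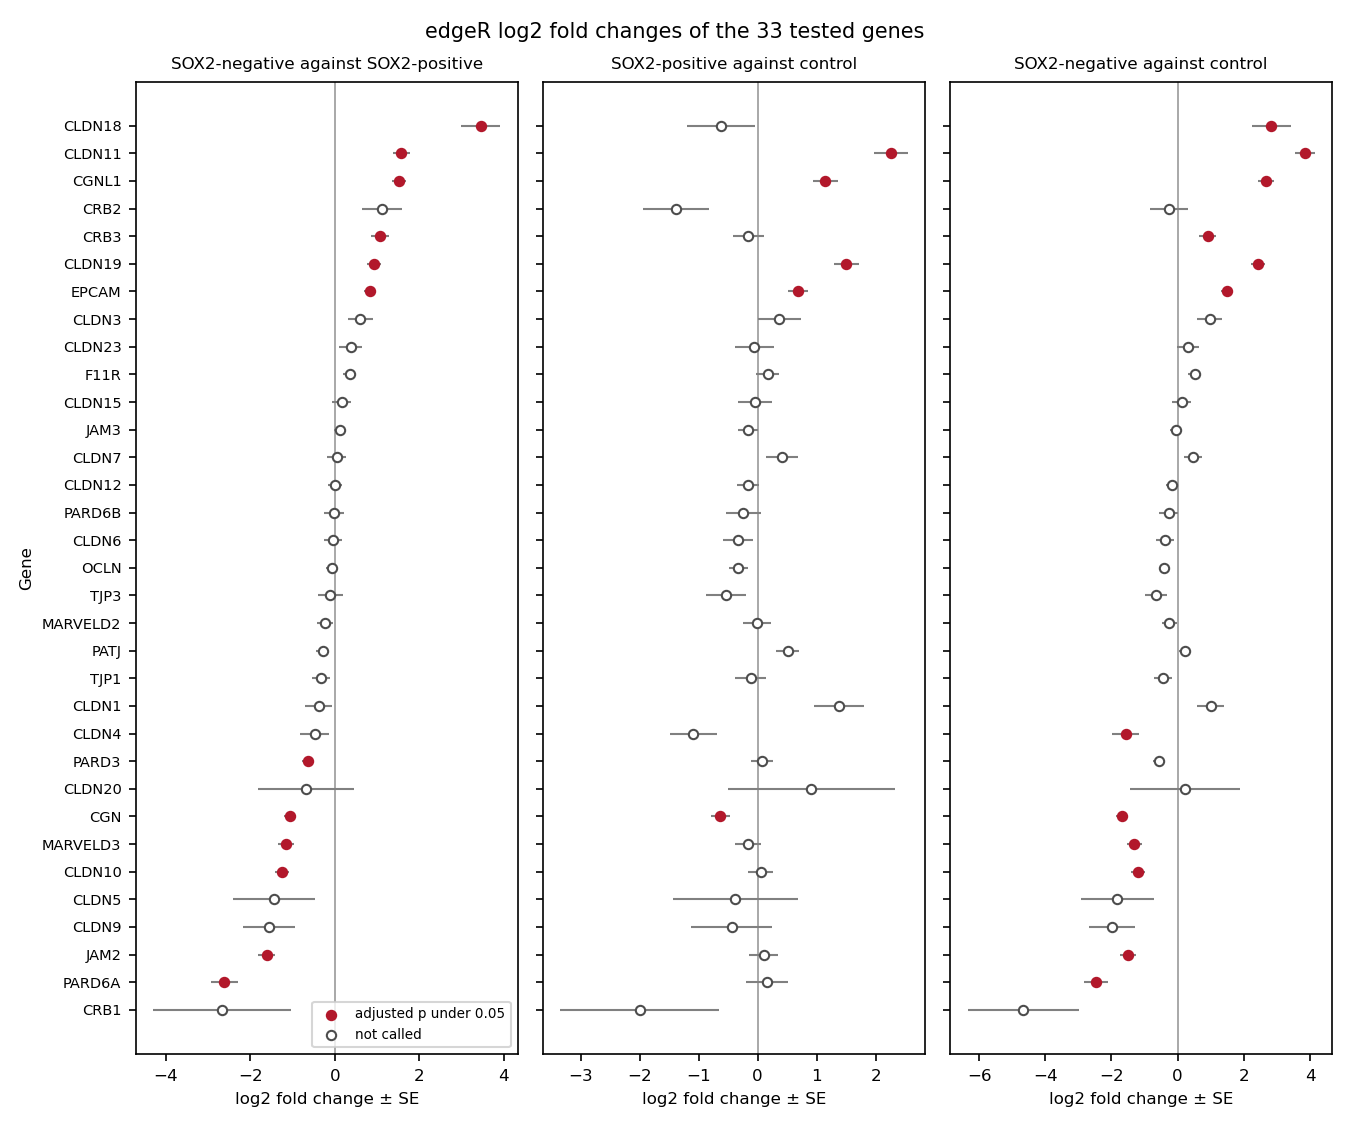
Log2 fold changes (points) with standard errors (bars) of the 33 tested genes in the 3 comparisons, sorted by the comparison of the gates, with filled points for genes at an adjusted p under 0.05 in edgeR. CLDN18 stands at 3.45 and PARD6A at -2.62 between the gates, and the panel for SOX2-positive cells against control has 5 filled points.

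Of the 8 pluripotency markers 6 were lower in SOX2-negative than in SOX2-positive cells and 0 were higher. The 6 were SOX2, the sorted gene, PRDM14, NANOG, DPPA4, DNMT3B and POU5F1, while LIN28A and TDGF1 were not called. Markers of other cell types moved with the gate as well. All 7 definitive endoderm markers rose in SOX2-negative cells, and their summed level was 840.3 to 1474 CPM there, 9.36 to 30.5 CPM in SOX2-positive cells and 3.96 to 7.98 CPM in control, where SOX17 was at 0. Of 8 lateral and cardiac mesoderm markers 7 rose (summed 63.4 to 358 CPM against 5.65 to 19.3 CPM). Of the 7 endothelial markers tested 4 rose and 1 fell, with summed levels of 55.3 to 309 CPM in SOX2-negative and 116 to 217 CPM in SOX2-positive cells. KDR, which fell, alone read 20.1 to 271 CPM and 96.2 to 190.2 CPM in these gates, and EMCN was at 0 in every SOX2-negative library. Surface ectoderm and amnion markers summed to 163 to 224 CPM in SOX2-negative and 9.75 to 55.9 CPM in SOX2-positive cells (2 higher and 2 lower of 5 tested, with ISL1 shared with the mesoderm list). The SOX2-negative sum was mostly GATA3 (140.4 to 179.6 CPM), while TFAP2A read 1.88 to 7.87 CPM there. Neural markers summed to 4.42 to 24.9 CPM and 19.4 to 88.3 CPM (4 of 5 lower), and immune markers to 1.54 to 5.27 CPM and 0.317 to 1.53 CPM. The part of these markers in the junction results was not tested. In these bulk libraries, fewer cells of a type and less RNA per cell cannot be told apart.

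**Figure D2:**
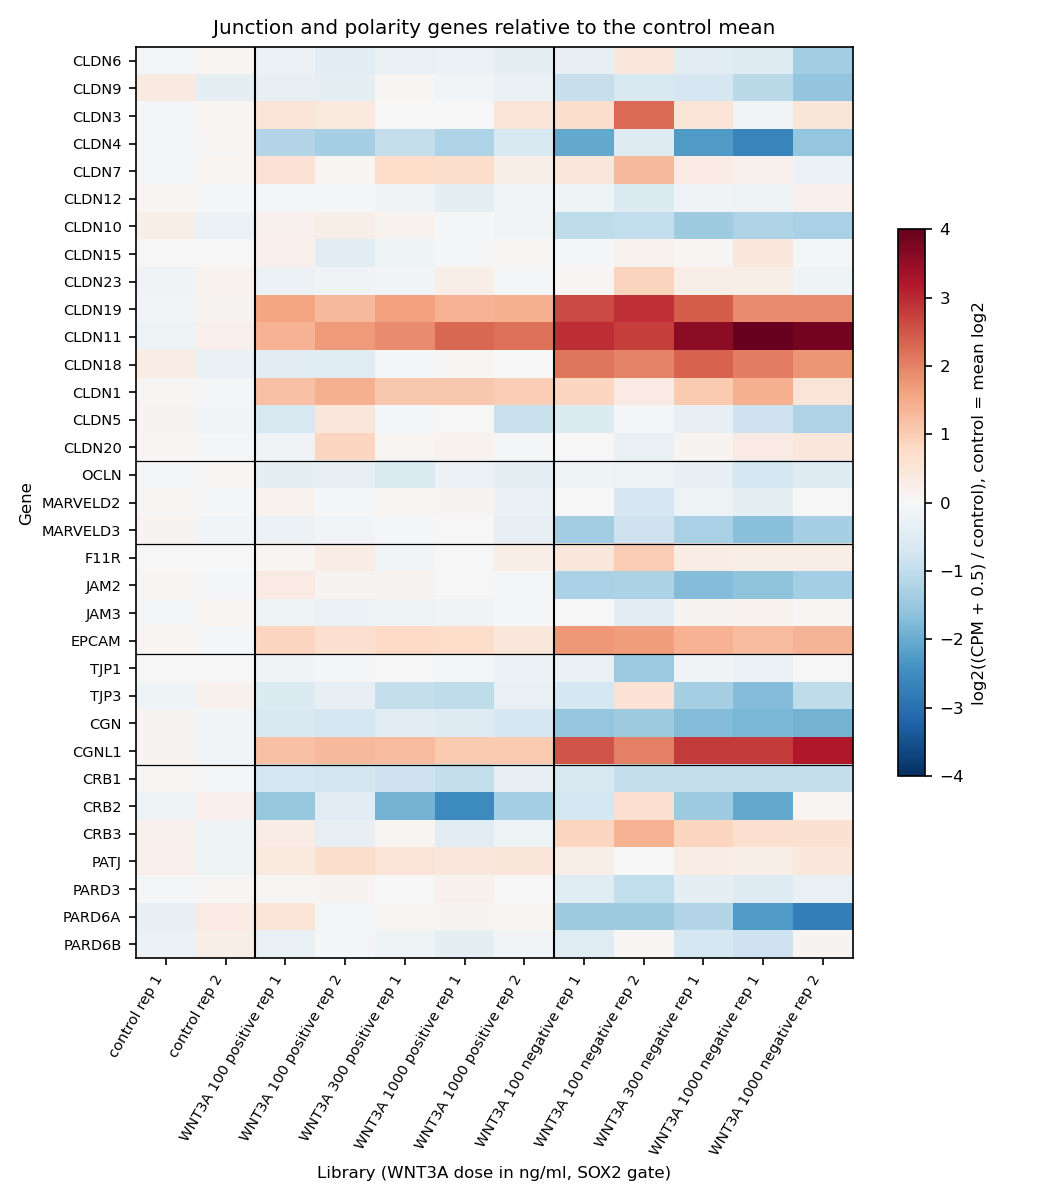
Colour shows log2 of (CPM + 0.5) relative to the control mean for each tested gene (rows, by role) in each of the 12 libraries (columns, by gate and dose). CLDN11, CLDN19 and CGNL1 darken in steps from control to SOX2-positive to SOX2-negative cells, while JAM2, MARVELD3, CLDN10 and PARD6A are pale in SOX2-positive cells and blue in all 5 SOX2-negative libraries.

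Among the claudins, 3 rose and 1 fell between the gates. CLDN18 (chr3:137998735-138033655, plus strand), a claudin with alternative first exons known from lung and stomach epithelium, was counted over both starts together. It was read at 0.661 and 0.256 CPM in control, at 0.198, 0.165, 0.380, 0.472 and 0.453 CPM in SOX2-positive cells and at 3.65, 3.21, 4.34, 3.35 and 2.72 CPM in SOX2-negative cells. Every SOX2-negative library lay above every other library. The SOX2-positive values were close to the level that 3 counts give (0.110 to 0.180 CPM by library), so the size of the fold change between the gates rests on few counts. The gates differed 10.9-fold (log2 fold change 3.45 ± 0.47, SE, edgeR adjusted p = 3.7e-04), SOX2-negative cells lay 2.83 ± 0.59 above control on the log2 scale (adjusted p = 0.0059), and SOX2-positive cells stood at -0.62 ± 0.57 against control (adjusted p = 0.60). Without control replicate 2 the difference between SOX2-negative cells and control was 2.28 with an adjusted p of 0.085.

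CLDN11 (chr3:170418865-170454733, plus strand), which forms the strands of myelin and of the testis barrier, had 0.915 and 1.35 CPM in control, 3.77, 4.82, 5.47, 7.37 and 6.88 CPM in SOX2-positive cells and 11.97, 10.6, 18.9, 25.7 and 22.5 CPM in SOX2-negative cells. The 3 groups did not overlap. It rose 4.81-fold from control to SOX2-positive cells (log2 2.26 ± 0.28, edgeR adjusted p = 0.0013) and 14.3-fold from control to SOX2-negative cells (3.84 ± 0.30, adjusted p = 1.4e-05), and the gates differed by 1.57 ± 0.20 (adjusted p = 2.3e-04). The annotation places a protein-coding gene, AC026316.5, across 35866 bases of CLDN11 on the same strand, among which the counting can divide reads.

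CLDN19 (chr1:42733093-42740254, minus strand), a claudin of the kidney's thick ascending limb and the retina, stepped in the same order. Its values were 4.98 and 5.82 CPM in control, 17.2, 13.9, 17.7, 14.98 and 15.2 CPM in SOX2-positive cells and 36.2, 43.7, 30.9, 21.1 and 21.3 CPM in SOX2-negative cells, with no overlap between the groups. SOX2-positive cells rose 2.83-fold over control (log2 1.50 ± 0.21, edgeR adjusted p = 0.0023), SOX2-negative cells 5.38-fold (2.43 ± 0.22, adjusted p = 3.3e-05), and the gates differed by 0.93 ± 0.16 (adjusted p = 0.0017).

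CLDN10 (chr13:95433604-95579759, plus strand), a channel-forming claudin, fell in SOX2-negative cells. It stood at 20.6 and 14.6 CPM in control, 19.8, 20.5, 19.1, 16.8 and 16.2 CPM in SOX2-positive cells and 8.32, 8.55, 6.21, 7.02 and 6.84 CPM in SOX2-negative cells. All SOX2-negative libraries lay below the other 7, and the 2 other groups overlapped. The log2 fold change was -1.25 ± 0.17 between the gates (edgeR adjusted p = 4.2e-04), -1.20 ± 0.20 against control (adjusted p = 0.0017) and 0.05 ± 0.21 for SOX2-positive cells against control (adjusted p = 0.93). CLDN10 overlaps CLDN10-AS1 and DZIP1 on the opposite strand, and without a stated strand setting their reads cannot be told apart.

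CLDN4 (chr7:73799542-73832693, plus strand), a sealing claudin of many epithelia, was highest in control. Its values were 33.8 and 35.4 CPM in control, 15.2, 13.4, 17.8, 14.3 and 22.5 CPM in SOX2-positive cells and 8.02, 24.1, 6.86, 5.11 and 11.6 CPM in SOX2-negative cells. Both gates lay below control in every library, and they overlapped with each other through the 24.1 CPM of WNT3A 100 SOX2-negative replicate 2. SOX2-negative cells were lower than control by the test (log2 fold change -1.57 ± 0.40, edgeR adjusted p = 0.017), a call that was lost without either control library (adjusted p = 0.084 and 0.10) and without WNT3A 1000 SOX2-negative replicate 1 (adjusted p = 0.050). SOX2-positive cells stood at -1.09 ± 0.40 against control (adjusted p = 0.14, or 0.0040 when only these groups were fitted). The gates were at -0.48 ± 0.35 (adjusted p = 0.35), and at -0.99 (adjusted p = 0.029) without WNT3A 100 SOX2-negative replicate 2.

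**Figure D3:**
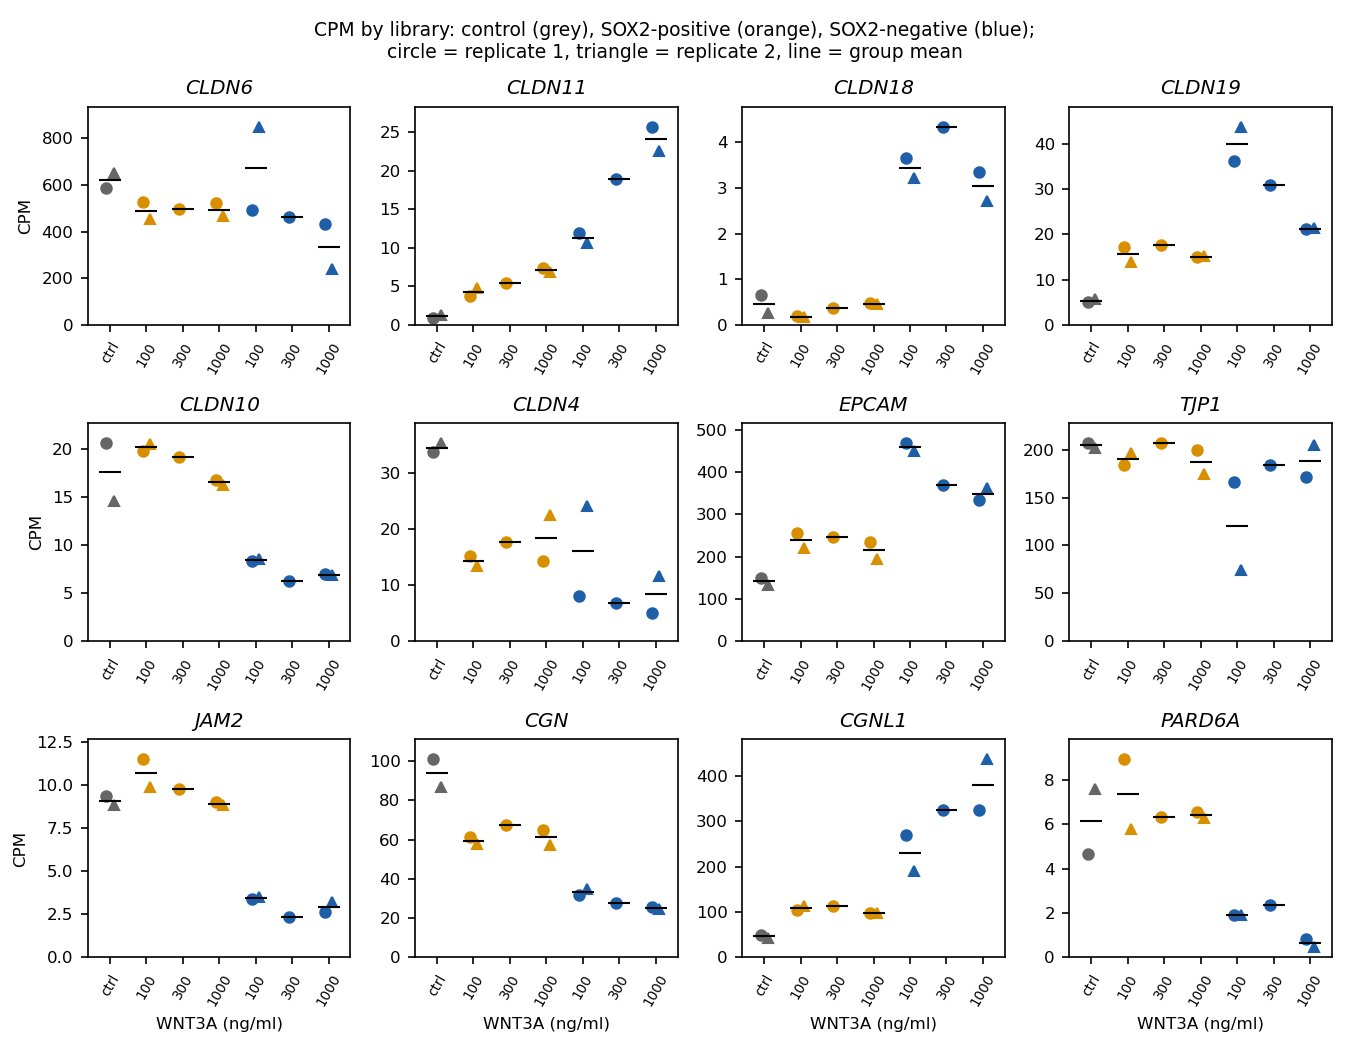
CPM (linear axis from 0) of 12 genes in each library, by WNT3A dose in ng/ml, for control (grey), SOX2-positive (orange) and SOX2-negative cells (blue), with a line at each group mean. The blue points of JAM2 lie between 2.36 and 3.50 CPM, below all orange and grey points, and the triangle at 849 CPM in the CLDN6 panel is WNT3A 100 SOX2-negative replicate 2.

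CLDN6 (chr16:3014712-3020071, minus strand) was the most abundant claudin in every library. It had 589 and 650.1 CPM in control, 525, 452, 499, 521 and 467 CPM in SOX2-positive cells and 493, 849, 461, 434 and 238 CPM in SOX2-negative cells. The SOX2-negative libraries spread on both sides of the SOX2-positive ones, and edgeR called CLDN6 in none of the gate and control comparisons: the log2 fold change was -0.05 ± 0.22 between the gates (edgeR adjusted p = 0.90), -0.33 ± 0.26 for SOX2-positive cells against control (adjusted p = 0.53) and -0.38 ± 0.26 for SOX2-negative cells against control (adjusted p = 0.34). TNFRSF12A overlaps CLDN6 by 1627 bases on the opposite strand.

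To compare levels between claudins, CPM were divided by the median length of each gene's coding transcripts in kilobases. On this scale CLDN6 was 80.2% of the summed claudin level in control, 73.5% in SOX2-positive and 71.4% in SOX2-negative cells, and 60.4% to 81.1% in single libraries. CLDN7, a basolateral claudin, followed with 6.75%, 10.5% and 10.8%. CLDN3, another sealing claudin, held 2.67%, 3.99% and 6.48%, CLDN12 3.65%, 3.78% and 3.60%, and CLDN10 3.29%, 3.95% and 1.57%. CLDN11 went from 0.0927% in control to 0.539% in SOX2-positive and 1.58% in SOX2-negative cells, and CLDN19 from 0.335% to 1.10% and 2.08%, so both remained minor claudins where they were highest. The rise of CLDN18 left it at 0.180% of the claudin level in SOX2-negative cells. The summed claudin level was 543 and 585 CPM per kilobase in control, 449.8 to 524 in SOX2-positive cells and 288 to 849 in SOX2-negative cells. Both extremes of the summed level were SOX2-negative libraries of replicate 2, at 1000 ng/ml and at 100 ng/ml.

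**Figure D4:**
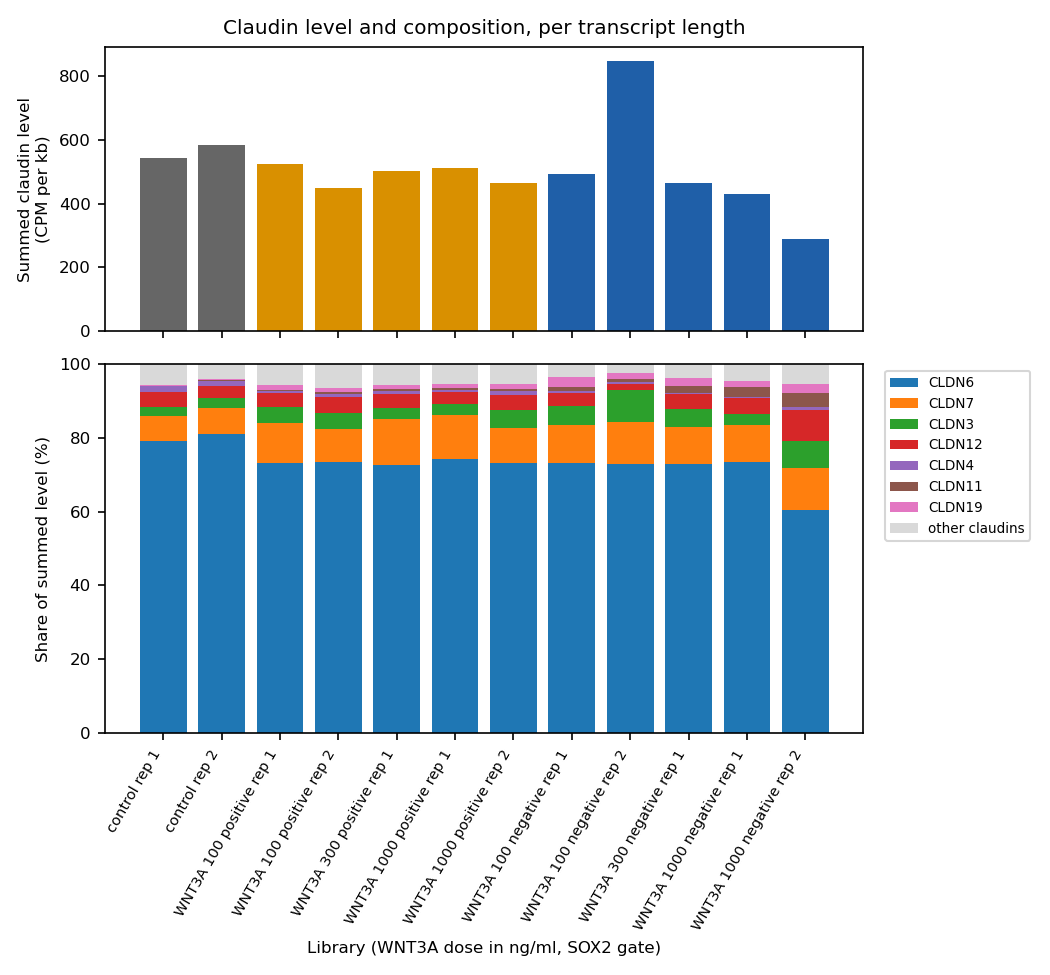
Summed claudin level in CPM per kilobase of transcript (top bars) and the percentage of it held by each named claudin (bottom, stacked to 100%) in each of the 12 libraries. CLDN6 fills 60.4% to 81.1% of every bar, and the top bars of the SOX2-negative libraries run from 288 to 849 CPM per kilobase. CLDN10 is within the grey part for other claudins.

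CLDN3 and CLDN7, sealing claudins that are common in endoderm-derived epithelia, were not called by edgeR in the gate or control comparisons. CLDN3 had 18.3 and 20.1 CPM in control, 27.5, 25.3, 19.1, 19.1 and 27.4 CPM in SOX2-positive cells and 31.5, 93.6, 27.6, 17.7 and 27.2 CPM in SOX2-negative cells. The SOX2-negative values lay on both sides of the SOX2-positive range, 3 above it, 1 below and 1 within. CLDN7 had 49.8 and 55.7 CPM in control, 78.9, 56.00, 87.6, 85.8 and 62.5 CPM in SOX2-positive cells and 71.7, 131, 65.6, 58.8 and 45.00 CPM in SOX2-negative cells, with overlapping gates. CLDN3 stood at 0.60 ± 0.30 between the gates (edgeR adjusted p = 0.18) and CLDN7 at 0.04 ± 0.22 (adjusted p = 0.93). Against control, CLDN3 in SOX2-negative cells stood at 0.97 ± 0.38 (edgeR adjusted p = 0.099). DESeq2 called that difference (0.97, adjusted p = 0.043), as did edgeR with no filter (0.95, 0.0022), which also called the gates (0.59, 0.022). Without WNT3A 100 SOX2-negative replicate 1, that group rested on replicate 2 alone, at 93.6 CPM for CLDN3 and 131 CPM for CLDN7. CLDN3 then stood at 0.87 between the gates and 1.24 against control, and CLDN7 at 0.63 against control.

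CLDN5, the main claudin of blood vessels, stayed near the limit of detection. It had 0.762 and 0.586 CPM in control, 0.248, 1.11, 0.618, 0.649 and 0.136 CPM in SOX2-positive cells and 0.299, 0.598, 0.428, 0.160 and 0 CPM in SOX2-negative cells. The groups overlapped, and CLDN5 was not called in any comparison. Of the other claudins tested, CLDN1, CLDN9, CLDN15, CLDN20 and CLDN23 reached at most 9.62 CPM in any library, and CLDN12 lay between 49.8 and 84.4 CPM. None of these 6 was called by edgeR, while limma called CLDN9 lower in SOX2-negative cells than in SOX2-positive cells (-1.37, adjusted p = 0.041) and than in control (-1.70, 0.040). CLDN1, the sealing claudin of the epidermis, had 1.73 and 1.57 CPM in control and 2.22 to 5.27 CPM in the treated libraries (log2 fold change 1.38 ± 0.42 for SOX2-positive cells against control, edgeR adjusted p = 0.074). DESeq2 called this rise of CLDN1 (1.39, adjusted p = 0.029), as did edgeR with only the compared groups (1.39, 0.020) and without either WNT3A 100 SOX2-negative library (1.38 each, with 0.043 and 0.041).

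The 9 genes that did not pass the filter were all claudins. CLDN8, CLDN17, CLDN22 and CLDN24 had no count in any of the 12 libraries, which allows a level of up to 0.110 to 0.180 CPM by library, a limit that covers counting error only. The highest value of any library was 0.213 CPM for CLDN2, 0.106 CPM for CLDN14, 0.206 CPM for CLDN16, 0.0824 CPM for CLDN25 and 0.407 CPM for CLDN34. CLDN2 and CLDN16 form cation channels in intestine and kidney, and their highest libraries held 4 and 5 counts.

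Of the MARVEL-domain proteins, which accompany claudins in the strands, MARVELD3 fell in SOX2-negative cells while OCLN and MARVELD2 were not called. MARVELD3 (chr16:71626161-71642114, plus strand) stood at 36.7 and 31.8 CPM in control, 29.2, 31.5, 33.2, 34.5 and 27.4 CPM in SOX2-positive cells and 12.7, 19.2, 13.6, 10.3 and 13.4 CPM in SOX2-negative cells. All SOX2-negative libraries were below all others. The log2 fold change was -1.16 ± 0.19 between the gates (edgeR adjusted p = 0.0012), -1.31 ± 0.22 for SOX2-negative cells against control (adjusted p = 0.0015) and -0.16 ± 0.22 for SOX2-positive cells against control (adjusted p = 0.75). PHLPP2 overlaps MARVELD3 by 4280 bases on the opposite strand.

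OCLN, occludin, had 69.1 and 75.3 CPM in control, 55.6, 56.9, 48.8, 60.6 and 56.1 CPM in SOX2-positive cells and 63.4, 63.2, 57.6, 44.3 and 50.3 CPM in SOX2-negative cells. Every treated library lay below both controls and the gates overlapped. The gates stood at -0.07 ± 0.13 (edgeR adjusted p = 0.76), and the differences from control were -0.33 ± 0.16 in SOX2-positive cells (adjusted p = 0.26) and -0.40 ± 0.16 in SOX2-negative cells (adjusted p = 0.096, or 0.039 without WNT3A 100 SOX2-negative replicate 1). MARVELD2, tricellulin, which seals the corners where 3 cells meet, ranged from 21.02 to 37.3 CPM over the 12 libraries.

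EPCAM (chr2:47345158-47387601, plus strand), an epithelial adhesion protein that binds and stabilises claudins, rose in steps. Its values were 150.2 and 133 CPM in control, 257, 220.5, 246, 236 and 194 CPM in SOX2-positive cells and 469, 450.3, 369, 335 and 362 CPM in SOX2-negative cells. The 3 groups did not overlap. The mean was 142 ± 12.1 CPM in control (SD, n = 2), 227 ± 26.8 CPM in SOX2-positive and 404 ± 65.7 CPM in SOX2-negative cells (SD, n = 4 each, at 100 and 1000 ng/ml). SOX2-negative cells exceeded SOX2-positive cells 1.77-fold (log2 0.82 ± 0.14, edgeR adjusted p = 0.0014) and control 2.83-fold (1.50 ± 0.18, adjusted p = 1.8e-04). The rise of SOX2-positive cells over control (0.68 ± 0.17, adjusted p = 0.035) lost its call when any 1 of 8 libraries was left out (adjusted p 0.050 to 0.39).

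Of the junctional adhesion molecules, immunoglobulin-like proteins that recruit the Par complex, JAM2 fell in SOX2-negative cells while F11R and JAM3 were not called. JAM2 (chr21:25639272-25717562, plus strand) had 9.35 and 8.86 CPM in control, 11.5, 9.90, 9.79, 9.02 and 8.82 CPM in SOX2-positive cells and 3.41, 3.50, 2.36, 2.66 and 3.21 CPM in SOX2-negative cells. SOX2-negative libraries lay below all others, 3.05-fold under SOX2-positive cells (log2 -1.61 ± 0.20, edgeR adjusted p = 2.4e-04) and 2.85-fold under control (-1.51 ± 0.24, adjusted p = 0.0010). ATP5PF overlaps JAM2 by 1060 bases on the opposite strand.

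F11R, which encodes JAM-A, was the most abundant of the family on the scale per kilobase (57.3 CPM per kilobase in control, against 20.5 for JAM3 and 2.16 for JAM2). It had 273 and 273 CPM in control, 287, 337, 252, 271 and 329.9 CPM in SOX2-positive cells and 375, 555, 336, 326 and 328 CPM in SOX2-negative cells. The gates overlapped, and the difference of 0.35 ± 0.16 was not called (edgeR adjusted p = 0.14). SOX2-negative cells stood at 0.51 ± 0.20 against control (edgeR adjusted p = 0.088), a difference called by DESeq2 (0.51, adjusted p = 0.045). With WNT3A 100 SOX2-negative replicate 1 left out, that group rested on the library at 555 CPM alone. F11R then stood at 0.46 between the gates and 0.63 against control. JAM3 stayed between 55.1 and 81.5 CPM.

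Among the scaffolds, CGN fell and CGNL1 rose in SOX2-negative cells, while TJP1 and TJP3 were not called. TJP1 (ZO-1) is the core scaffold of the junction. Its values were 207 and 202 CPM in control, 184, 197, 207, 199.8 and 175 CPM in SOX2-positive cells and 166, 74.9, 184, 172 and 205 CPM in SOX2-negative cells. Only WNT3A 100 SOX2-negative replicate 2, at 74.9 CPM, lay apart from the rest. The gates differed by -0.33 ± 0.22 (edgeR adjusted p = 0.31). With replicate 1 of that group left out, so that the group rested on the library at 74.9 CPM alone, the value was -0.68 with an adjusted p of 0.0019.

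TJP3 (ZO-3) had 58.8 and 74.8 CPM in control, 45.3, 52.99, 33.8, 32.5 and 53.9 CPM in SOX2-positive cells and 40.5, 98.5, 25.98, 19.8 and 32.6 CPM in SOX2-negative cells. The same library was the highest of all 12 here. SOX2-negative cells stood at -0.65 ± 0.34 against control (edgeR adjusted p = 0.21). They were lower by the test with the replicate number as a block (-0.72, adjusted p = 0.045), without that library (-1.04, adjusted p = 0.015), and with no filter on low counts (-0.66, 0.024).

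Cingulin and cingulin-like 1 (paracingulin) link the junction to actin and myosin. CGN (chr1:151510510-151538692, plus strand) fell from 101 and 86.9 CPM in control to 61.2, 57.98, 67.7, 65.03 and 57.4 CPM in SOX2-positive cells and 31.7, 34.7, 27.7, 25.9 and 24.8 CPM in SOX2-negative cells. CGNL1 (chr15:57375967-57550727, plus strand) went from 50.01 and 43.1 CPM in control to 105, 114, 113, 97.4 and 97.1 CPM in SOX2-positive cells and 269, 191, 325, 324 and 436 CPM in SOX2-negative cells. For both genes the 3 groups were separate, in opposite orders. CGN stood at -1.06 ± 0.14 between the gates (edgeR adjusted p = 2.7e-04) and -1.69 ± 0.16 in SOX2-negative cells against control (adjusted p = 3.8e-05), and CGNL1 at 1.52 ± 0.16 (adjusted p = 8.3e-05) and 2.67 ± 0.23 (adjusted p = 2.2e-05).

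On the scale per kilobase, CGN had 18.4 ± 1.92 and CGNL1 6.44 ± 0.677 CPM per kilobase in control (SD, n = 2). In SOX2-positive cells they stood at 11.9 ± 0.689 and 14.3 ± 1.12, and in SOX2-negative cells at 5.75 ± 0.930 and 42.2 ± 14.2 (SD, n = 4 each), so the order of the paralogues by level was reversed. The changes of SOX2-positive cells against control were weaker calls: CGN at -0.63 ± 0.16 (edgeR adjusted p = 0.037) lost its call without any 1 of 8 libraries (adjusted p 0.050 to 0.34), and CGNL1 at 1.15 ± 0.21 (adjusted p = 0.0077) lost it without either control (0.067 and 0.16). On plain library totals CGN in that comparison was at -0.57 with an adjusted p of 0.060, and with no filter on low counts at -0.64 with 0.051.

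In the Crumbs complex, the apical determinant of epithelia, CRB3 rose. CRB3 (chr19:6463777-6467221, plus strand), the short Crumbs protein of most epithelia, had 12.8 and 9.89 CPM in control, 14.03, 8.91, 11.8, 8.14 and 9.64 CPM in SOX2-positive cells and 20.8, 30.2, 20.7, 17.98 and 17.4 CPM in SOX2-negative cells. SOX2-negative libraries lay above all others, 2.1-fold over SOX2-positive cells (log2 1.07 ± 0.21, edgeR adjusted p = 0.0040). The difference from control was 0.91 ± 0.26 (adjusted p = 0.032), a call lost without either control library (0.097 and 0.27), without either WNT3A 1000 SOX2-negative library (0.069 and 0.060) and when only the compared groups were fitted (0.053). SLC25A23 overlaps CRB3 by 1427 bases on the opposite strand.

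CRB2, a Crumbs protein of early embryonic and neural epithelia, varied more between replicates than between gates. It had 50.1 and 67.04 CPM in control, 20.1, 42.1, 15.1, 9.55 and 22.9 CPM in SOX2-positive cells and 35.6, 92.6, 20.7, 13.7 and 60.9 CPM in SOX2-negative cells. Replicate 2 exceeded replicate 1 in all 5 groups with 2 libraries, over 2-fold in each treated group. The edgeR test without a term for the repeat did not call CRB2 (1.12 ± 0.48 between the gates, edgeR adjusted p = 0.12, and -1.38 ± 0.56 for SOX2-positive cells against control, 0.18). With the replicate number as a block it was higher in SOX2-negative than in SOX2-positive cells (1.01, adjusted p = 0.015) and lower in SOX2-positive cells than in control (-1.53, adjusted p = 0.010). Calls without the block came in edgeR with no filter on low counts (1.11 with adjusted p 4.3e-07 and -1.38 with 1.5e-07). CRB2 passed the filter and its fold changes were nearly the same without it, so these calls came with another estimate of the spread. CRB2 was also called for SOX2-positive cells against control with only those groups fitted (-1.37, 0.023). Without replicate 1 of WNT3A 100 or of WNT3A 1000 SOX2-negative, the gates stood at 1.37 and 1.46. Those groups then rested on replicate 2 alone, at 92.6 and 60.9 CPM. CRB1, known from retina and brain, had 0.508 and 0.439 CPM in control, 0.0992, 0.0825, 0.0475, 0 and 0.272 CPM in SOX2-positive cells and 0.120 CPM in 1 SOX2-negative library, with 0 in the other 4.

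PATJ, the scaffold of the Crumbs complex, was not called, with 48.5 and 36.9 CPM in control, 56.1, 68.98, 60.5, 58.7 and 58.96 CPM in SOX2-positive cells and 49.6, 42.5, 52.1, 50.6 and 56.5 CPM in SOX2-negative cells. SOX2-positive libraries were above both controls (0.51 ± 0.19, edgeR adjusted p = 0.15, or 0.042 with only the compared groups fitted), and they overlapped narrowly with SOX2-negative ones.

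In the Par complex, PARD3 and PARD6A fell in SOX2-negative cells. PARD6A (chr16:67660946-67662778, plus strand), an adaptor for atypical protein kinase C, had 4.68 and 7.58 CPM in control, 8.93, 5.81, 6.32, 6.54 and 6.29 CPM in SOX2-positive cells and 1.92, 1.92, 2.36, 0.851 and 0.453 CPM in SOX2-negative cells. No SOX2-negative library reached the others. It was 6.16-fold lower than in SOX2-positive cells (log2 -2.62 ± 0.32, edgeR adjusted p = 1.8e-04) and 5.5-fold lower than in control (-2.46 ± 0.36, adjusted p = 6.6e-04). Its paralogue PARD6B, at 18.8 and 26.7 CPM in control, 18.00, 21.03, 19.3, 17.1 and 20.7 CPM in SOX2-positive cells and 15.9, 23.03, 13.6, 12.3 and 24.2 CPM in SOX2-negative cells, was not called (-0.02 ± 0.24 between the gates, adjusted p = 0.96), and its groups overlapped.

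PARD3 (chr10:34109560-34815325, minus strand), the scaffold that recruits the other Par proteins to the junction, had 87.97 and 92.5 CPM in control, 93.1, 96.6, 91.7, 101 and 89.1 CPM in SOX2-positive cells and 64.4, 45.04, 68.4, 62.3 and 73.7 CPM in SOX2-negative cells. The SOX2-negative libraries were below all 7 others. The log2 fold change was -0.64 ± 0.15 between the gates (edgeR adjusted p = 0.012) and -0.57 ± 0.19 against control (adjusted p = 0.051, on the other side of the threshold in DESeq2 at 0.019 and in limma at 0.041).

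**Figure D5:**
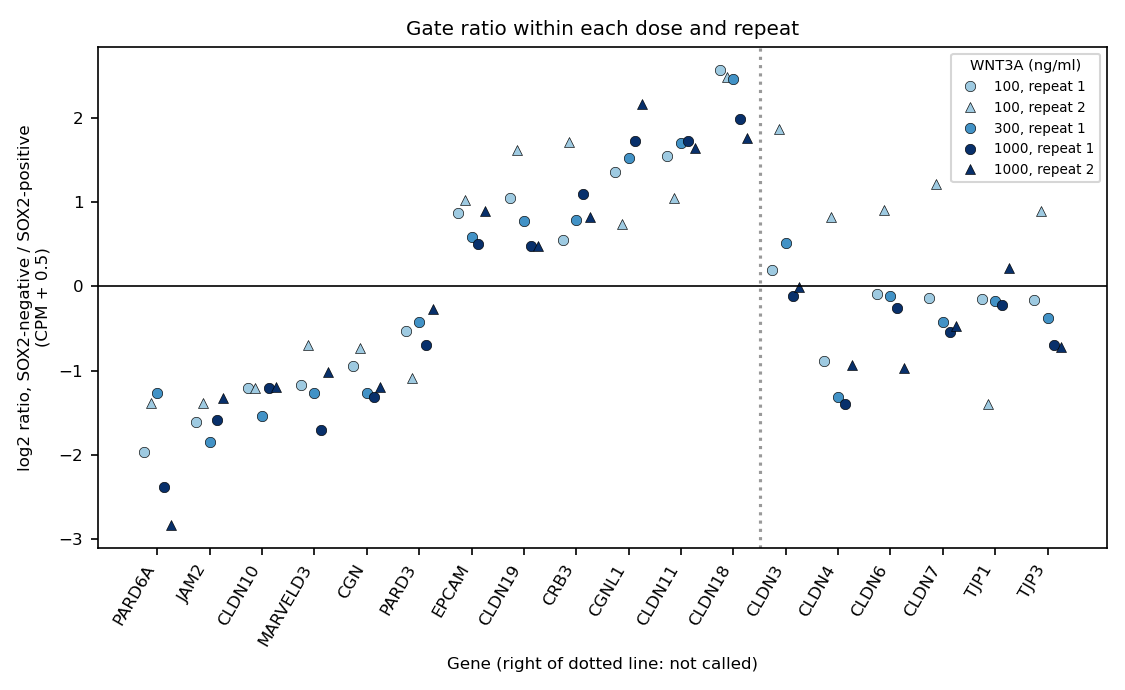
Log2 ratio of SOX2-negative to SOX2-positive CPM (each + 0.5) within each dose and repeat, for the 12 genes called (left of the dotted line) and 6 genes not called (right). Each called gene keeps 1 sign in 5 of 5 pairs, which is no separate evidence because most of these libraries gave the calls. CLDN3, CLDN4, CLDN6, CLDN7 and TJP3 have their highest ratio in repeat 2 at 100 ng/ml, and TJP1 has its lowest there.

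Against control, fewer genes were called in SOX2-positive than in SOX2-negative cells, and both comparisons share the same 2 control libraries. In SOX2-positive cells 5 of the 33 genes were called (15.2%), CLDN11, CLDN19, CGNL1 and EPCAM higher and CGN lower, where 7.81% of all genes were called in edgeR (4.65% higher and 3.17% lower). The median log2 fold change was -0.06 over the 33 genes and 0.01 over all genes, and the median size 0.37 against 0.34. CLDN11 and CLDN19 kept their call under every alternative tried. Of the 8 pluripotency markers 4 were higher (TDGF1, NANOG, POU5F1 and DPPA4) and LIN28A was lower. Of the markers of other cell types, definitive endoderm had 4 of 7 higher and 1 lower, surface ectoderm and amnion 3 of 5 lower, mesoderm 3 of 8 lower, neural 2 of 5 lower and endothelium 1 higher and 1 lower of 7. Summed neural markers went from 401 to 587 CPM in control to 19.4 to 88.3 CPM, and summed surface ectoderm and amnion markers from 218 to 298 CPM to 9.75 to 55.9 CPM. The neural sum in control was mostly LHX5 (356 and 468 CPM). The part of these markers was not tested. The count was 9 when only the compared groups were fitted and 2 to 7 with single libraries left out: 2 without either control, and 3 without any 1 of the 4 SOX2-positive libraries or of the 2 WNT3A 1000 SOX2-negative libraries.

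In SOX2-negative cells against control 12 of the 33 genes were called (36.4%), where 22.5% of all genes were called (12.4% higher and 10.1% lower). CLDN11, CLDN18, CGNL1, CLDN19, EPCAM and CRB3 were higher and PARD6A, CGN, CLDN4, JAM2, MARVELD3 and CLDN10 lower. The median log2 fold change was -0.25 over the 33 genes and 0.03 over all genes, and the median size 0.91 against 0.49. Leaving out WNT3A 100 SOX2-negative replicate 1 raised the count to 19, with the group then resting on the library that stood apart, and leaving that library out gave 14. Markers of other cell types moved with this comparison as well: definitive endoderm with all 7 higher, mesoderm with 6 of 8 higher, endothelium with 5 higher and 2 lower of 7, surface ectoderm and amnion with 2 higher and 2 lower of 5, and neural markers with 4 of 5 lower (401 to 587 CPM summed in control, mostly LHX5, against 4.42 to 24.9 CPM). Of the 8 pluripotency markers 1 was higher and 5 were lower. The part of these markers was not tested.

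The WNT3A dose gave no call. Between 1000 and 100 ng/ml in SOX2-positive cells edgeR called 0 of the 33 genes (0% of all genes), and DESeq2 and limma called none of the 33. At an unadjusted p under 0.05 stood 1 gene, CLDN11 (0.73 ± 0.28), which is 3.03% against 1.72% of all genes. In SOX2-negative cells edgeR again called 0 of the 33 (0% of all genes), DESeq2 called 4 and limma 0. Here 10 genes had an unadjusted p under 0.05, 30.3% against 18.2% of all genes.

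CGNL1 (0.72 ± 0.23) and CLDN11 (1.10 ± 0.27) stood higher on the log2 scale at 1000 ng/ml in SOX2-negative cells, and CLDN3 (-1.48 ± 0.43), CLDN6 (2-fold lower, SE 0.31 on the log2 scale), CLDN7 (-0.97 ± 0.31), CLDN19 (-0.91 ± 0.22), F11R (-0.51 ± 0.22), OCLN (-0.42 ± 0.18), PARD6A (-1.57 ± 0.47) and TJP3 (-1.41 ± 0.41) lower, all at edgeR adjusted p values of 0.22 to 0.27. For CLDN3, CLDN6, CLDN7, F11R and TJP3 the high value at 100 ng/ml was that of WNT3A 100 SOX2-negative replicate 2. For CLDN11 and CLDN19 the replicates lay close together, and the single 300 ng/ml library fell between the 2 doses: CLDN11 went from 11.97 and 10.6 CPM through 18.9 to 25.7 and 22.5, and CLDN19 from 36.2 and 43.7 CPM through 30.9 to 21.1 and 21.3. Leaving out WNT3A 100 SOX2-negative replicate 1 gave 13 calls among the 33 genes, and leaving out replicate 2 gave 0.

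The test of whether the dose effect differed between the gates called 0 of the 33 genes in edgeR (0% of all genes), and none in DESeq2 or limma. At an unadjusted p under 0.05 stood CGNL1, CLDN6, CLDN7, CLDN19 and PARD6A, 15.2% of the 33 against 7.91% of all genes. The difference was -0.87 ± 0.32 for CLDN19 and 0.89 ± 0.32 for CGNL1, both with an edgeR adjusted p of 0.53. Without WNT3A 100 SOX2-negative replicate 1 the count was 8.

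Other junction and polarity genes were taken from a fixed list of 53 genes, of which 50 were tested. Between the gates 8 rose and 8 fell, which is 32% of the 50 against 24.0% of all genes, with a median log2 fold change of 0.12 against 0.01. The angiomotin AMOT, which binds PATJ and restrains YAP, stood at 10.4 to 18.00 CPM in SOX2-positive and 48.1 to 159 CPM in SOX2-negative cells (log2 2.64 ± 0.34, edgeR adjusted p = 2.9e-04), and its relative AMOTL2 rose by 2.04 ± 0.33 (adjusted p = 0.0011). ESAM, an adhesion molecule of the endothelium, rose by 3.66 ± 0.84 (adjusted p = 0.0095) to 1.28 to 3.50 CPM, and LIN7B, a partner of the Crumbs scaffold PALS1, by 1.46 ± 0.30 (adjusted p = 0.0052). Among the genes that fell, MAGI2, an inverted membrane-associated guanylate kinase of the junction, had 46.3 to 59.8 CPM in SOX2-positive and 7.44 to 10.3 CPM in SOX2-negative cells (-2.50 ± 0.19, adjusted p = 9.1e-06). PLEKHA7 of the adherens junction stood at -1.68 ± 0.17 (adjusted p = 4.5e-05), the Par gene PARD3B at -1.59 ± 0.34 (adjusted p = 0.0067) and ILDR2 of tricellular contacts at -1.37 ± 0.33 (adjusted p = 0.012). In SOX2-positive cells against control 2 of the 50 rose and 1 fell, 6% against 7.81% of all genes. In SOX2-negative cells against control 7 rose and 6 fell, 26% against 22.5% of all genes.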

How the data were processed

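RNA was measured in 12 libraries. Per the labels' protocols, poly-A RNA was primed with random hexamers and read from both ends. The submitters' processing notes name Salmon and the build GRCh38. The Salmon version, annotation release and strand setting are not given in the sources used here. The authors deposited estimated counts per gene, not scaled between libraries.

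Estimated counts were rounded and summed by symbol, as the rule for the genes asks: 37951 identifiers gave 35940 symbols, and OCLN, MARVELD2, TJP1 and CLDN23 each joined 2 identifiers. The test was edgeR 4.0.16 under R 4.3.3 (TMM, filterByExpr with minimum count 10 and minimum total 15, glmQLFit, glmQLFTest, two-sided, Benjamini-Hochberg over 17047 symbols, threshold 0.05) in 1 model of 12 libraries and 7 group means, with 5 residual degrees of freedom and a prior of 5.6. Contrasts averaged 100 and 1000 ng/ml. The 300 ng/ml libraries entered the filter and the scaling but no contrast. As the only library of their group, they left no residual and added nothing to the shared spread. SE is the log2 fold change divided by the root of F. CPM use the TMM-scaled total of tested genes. The floor for a count of 0 is 3 counts per library.

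Alternatives were DESeq2 size factors, plain totals, DESeq2 1.42.0, limma 3.58.1 (trend, prior count 2), no filter, the replicate block, only the compared groups, all 3 doses averaged, identifiers apart and each replicated library left out. Replicate numbers come from the titles. Set 2 is a biological repeat per the series' design text, in which the sorted fractions of a treatment share their colonies. Same-numbered libraries deviated from their group means with correlations across genes of -0.06 to 0.22 in 10 group pairs (5 above 0.1). Replicates differed by more than sampling noise (chi-square per degree of freedom 21.7 to 134).

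Gene coordinates and overlaps come from GENCODE 29, promoters from RefSeq GRCh38.p14, which held 30 of the 42 symbols. Values in every library are given for each gene called in the gate or control comparisons and for a fixed set of others, and up to 4 genes per direction of the list of other junction genes are named by size of change. The genes, lists and markers were chosen with earlier results of these data known. A gene of the set and a marker gene are not reported here and enter no count of either list. The test between the gates was tried on simulated data. It recovered 64.2% of 2-fold, 95.5% of 4-fold and 97% of 8-fold changes, with 6 false calls. In the simulated data 67, 67 and 66 of 16498 genes were changed by these sizes, where the real test between the gates called 24.0% of all genes. Whether the rates hold for the real libraries was not tested. This applies above all to genes with few counts and to the library that stood apart from its replicate. A gene not called can therefore still differ 2-fold or more.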

Additional observations from a re-analysis of the deposited data

Results flagged for a closer look

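Within the 5 libraries of each gate, 9 of 66 sets of values had their highest or lowest library far from the rest, with a gap over 0.71 of the whole range. Independent draws from 1 normal distribution give about 1 in 20. These sets mix the WNT3A doses and include genes with few counts, and the share over all genes was not computed, so 9 of 66 cannot be called more than usual. WNT3A 100 SOX2-negative replicate 2 accounted for 5 of them: it was the high library for CLDN3 (93.6 CPM), CRB3 (30.2 CPM), F11R (555 CPM) and TJP3 (98.5 CPM) and the low library for JAM3 (55.1 CPM). In the same gate CRB1 was detected only in WNT3A 100 SOX2-negative replicate 1 (0.120 CPM). In SOX2-positive cells the separate values were the high ones of CLDN20 in WNT3A 100 replicate 2 (0.619 CPM), CLDN23 in WNT3A 1000 replicate 1 (6.01 CPM) and PARD6A in WNT3A 100 replicate 1 (8.93 CPM).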

How the results depend on the processing

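Between the gates, 11 of the 12 calls held under every alternative tried, all but PARD3. Of the 12 calls for SOX2-negative cells against control 9 held, all but CLDN18, CLDN4 and CRB3, and of the 5 for SOX2-positive cells CLDN11 and CLDN19. No called gene reversed. For SOX2-positive cells against control, all genes called numbered 1332, but 2059 with DESeq2, 2158 with no filter and 3243 with only the compared groups fitted, which called 9 of the 33 genes. For the dose in SOX2-positive cells, where edgeR called 0 of all genes, DESeq2 called 5 and no filter 107. In SOX2-negative cells DESeq2 called 309, no filter 1551, the replicate block 1 and only the compared groups 1, and among the 33 genes DESeq2 called 4 and no filter 6. For the difference between gates DESeq2 called 15 genes and no filter 308. All 33 genes passed the filter, so for them the fit with no filter differed only in the scaling, the estimated spread and the adjustment. With single libraries left out, all genes called ranged from 2638 to 6835 between the gates, 250 to 2439 for SOX2-positive and 1749 to 6111 for SOX2-negative cells against control, 0 to 5739 for the dose in SOX2-negative cells and 0 to 3795 for the difference. The highest of these counts came without WNT3A 100 SOX2-negative replicate 1, except 2439, which came without replicate 2. The 33 genes gave 11 to 17, 2 to 7, 9 to 19, 0 to 13 and 0 to 8 calls. The cause was not tested, and a lone library is assumed to vary like the other groups. The replicate block was 1 term for the replicate number, shared by all groups, and the pairing of the gates within the same colonies was not fitted. With this block, calls were gained by CRB2 between the gates and for SOX2-positive cells against control and by TJP3 for SOX2-negative cells against control, and no other call among the 33 genes changed. Groups of 2 libraries limit the precision, and genes under about 1 CPM rest on few counts.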

Other observations

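There were 4 symbols that join 2 identifiers each, the second being a copy outside the primary chromosomes of GENCODE 29, and the counting can divide reads between the copies. The second identifier held 62.6% of the counts of TJP1, 36.1% of MARVELD2, 16.9% of OCLN and 39.9% of CLDN23. For CLDN23, a claudin of intestinal epithelium, the second identifier ran from 0 to 163 counts by library and the first from 19 to 107. Tested apart, the 2 identifiers of CLDN23 stood at -0.87 (edgeR adjusted p = 0.25) and 2.89 (adjusted p = 0.12) between the gates, and those of TJP1 at -0.50 (0.29) and -0.23 (0.47).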
